A study of Ambystoma mexicanum with 5 samples.

Results

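*Grem1*, *Smoc2* and *Msx2* are 3 genes tied to bone morphogenetic protein (BMP) signalling that were read in dermal cells of the axolotl limb, out of 99088 genes in the count table. *Grem1* (AMEX60DD012132) and *Smoc2* (AMEX60DD034577) were taken by their identifiers, and *Msx2* (AMEX60DD028758) by the identifier that the study's lists of positional genes pair with that symbol. The lists name them GREM1, SMOC2 and MSX2. Those lists hold genes that the study called different between anterior and posterior cells of these same libraries. The 3 genes were thus chosen by their measured difference between positions, which is given for them as a description. Where the fit across all genes calls them, this is stated only as a count and supports nothing.

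BMPs are secreted ligands that bind paired receptor kinases at the cell surface and signal to the nucleus through Smad proteins. Secreted proteins that bind the ligands outside the cell limit where and how strongly they act. Gremlin 1, the product of *Grem1*, is one of these antagonists. In the mouse limb bud it relays the posterior Shh signal to the Fgf-producing ridge by holding back BMPs. *Smoc2* encodes a secreted calcium-binding matrix protein, whose fruit fly relative Pentagone modulates the spread of a BMP ligand. *Msx2* encodes a homeobox transcription factor that BMP signalling switches on in mouse and chick limb buds.

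The cells came from the skin of the uninjured lower arm of axolotls 12 cm long that carried the transgenes Mmu.Prrx1:TFPnls-T2A-ERT2-Cre-ERT2 and Caggs:loxP-GFP-loxP-mCherry. The first drives an inducible Cre recombinase from a mouse *Prrx1* limb enhancer, and embryos of both groups were given 4-hydroxytamoxifen (4-OHT), which left their connective tissue cells permanently red. Skin was cut into an anterior and a posterior piece with a gap in between, dissociated with Liberase TM and sorted for mCherry, and RNA was sequenced from 2 anterior and 3 posterior replicates. Each replicate pooled 8 animals (16 lower arms), so that variation between single animals was not measured, and whether same-numbered anterior and posterior replicates came from the same animals is not given in the sources used here.

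The libraries held 44317956 to 59062548 counts, and 3 counts corresponded to 0.0511 to 0.0669 CPM (counts scaled by the TMM method to a library of 1000000). The kit reads the 3′ end of each transcript, so that a CPM does not grow with transcript length, although how fully each annotated 3′ end catches its reads is unknown. Of 16 genes listed as markers of dermal connective tissue, 8 had an identifier. They summed to 12405 and 13934 CPM in the anterior libraries and to 9035 to 9915 CPM in the posterior libraries, and none was at 0 in any library. The sum was dominated by *Postn* and *Col12a1*, and 5 of the 8 were higher posteriorly. *Prrx1* itself was not analysed here. Markers of other cells were present too. The 6 of 10 epidermal markers with an identifier summed to 298 and 318 CPM in anterior and to 634 to 878 CPM in posterior cells. The 3 of 8 immune markers summed to 82.3 and 116 CPM in anterior and to 178 to 203 CPM in posterior cells. For cartilage and bone, 2 of 6 markers summed to 26.9 and 36.3 CPM anteriorly and 58.6 to 78.1 CPM posteriorly. A single endothelial and mural marker of 8 had 26.9 and 36.2 CPM anteriorly and 9.80 to 14.6 CPM posteriorly. For nerve and glia, 2 of 6 summed to 69.3 and 78.2 CPM anteriorly and 78.5 to 86.3 CPM posteriorly. This sum joined opposite differences. *Ngfr* averaged 43.6 CPM anteriorly and 20.2 CPM posteriorly, and *Uchl1* 30.2 and 61.3 CPM. For muscle, a single marker of 7 had 0 and 0.0196 CPM anteriorly and 1.28 to 1.81 CPM posteriorly. Among the epidermal genes, *Krt17* was at 0 in both anterior libraries and *Krt18* at 0 in all 3 posterior libraries, while *Krt5*, *Krt19*, *Dsp* and *Col17a1* were counted in every library. These markers carry an identifier because they are on the study's lists of positional genes.

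*Grem1* was the posterior gene of the pair of secreted modulators. It had 1211 and 1363 counts anteriorly and 14832, 17074 and 11547 posteriorly, or 27.0 and 26.7 CPM against 253, 292 and 215 CPM. The groups did not overlap, and the lowest posterior library stood 7.95 times above the highest anterior one. Mean levels of 26.9 ± 0.227 CPM (SD, n = 2) and 253 ± 38.4 CPM (SD, n = 3) gave a log2 fold change of 3.24 with a standard error of 0.18, or 9.42-fold. In bulk RNA such a difference can reflect fewer expressing cells or less RNA in each cell, which cannot be told apart here. *Grem1* was not absent anteriorly. Its anterior level placed it in the top 17.6% of the 20875 genes tested, and in posterior cells it was in the top 2.40%. Only 6 of the 7260 tested genes with a mean of at least 10 CPM had a larger absolute log2 fold change, set against a median of 0.20 over those 7260.

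*Smoc2* lay on the opposite side. Its 6212 and 8262 anterior counts compared with 2027, 2459 and 2209 posterior counts, or 139 and 162 CPM against 34.5, 42.0 and 41.1 CPM. Again no posterior library reached an anterior one, and the lowest anterior level was 3.30 times the highest posterior level. Anterior cells averaged 150 ± 16.4 CPM (SD, n = 2) and posterior cells 39.2 ± 4.06 CPM (SD, n = 3), which is a log2 fold change of -1.94 (standard error 0.16). Posterior cells thus kept a sizeable *Smoc2* level in CPM, above that of *Grem1* in anterior cells. *Smoc2* was in the top 3.82% of tested genes in anterior and in the top 12.7% in posterior cells.

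*Msx2* was also higher in posterior cells, by less. Anterior libraries held 590 and 959 *Msx2* counts, posterior ones 2026, 1788 and 2193, or 13.2 and 18.8 CPM against 34.5, 30.5 and 40.8 CPM. The groups were separate, but the gap was narrow, with the lowest posterior library 1.63 times above the highest anterior one. Averages of 16.0 ± 3.97 CPM (SD, n = 2) and 35.3 ± 5.17 CPM (SD, n = 3) correspond to a log2 fold change of 1.14 with a standard error of 0.24, or 2.21-fold. The size of this difference depended on the anterior libraries, with 0.91 when anterior replicate 1 was left out and 1.42 when anterior replicate 2 was left out. Among tested genes with a mean of at least 10 CPM, 124 had a larger absolute log2 fold change than *Msx2* and 24 had a larger one than *Smoc2*.

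**Figure D1:**
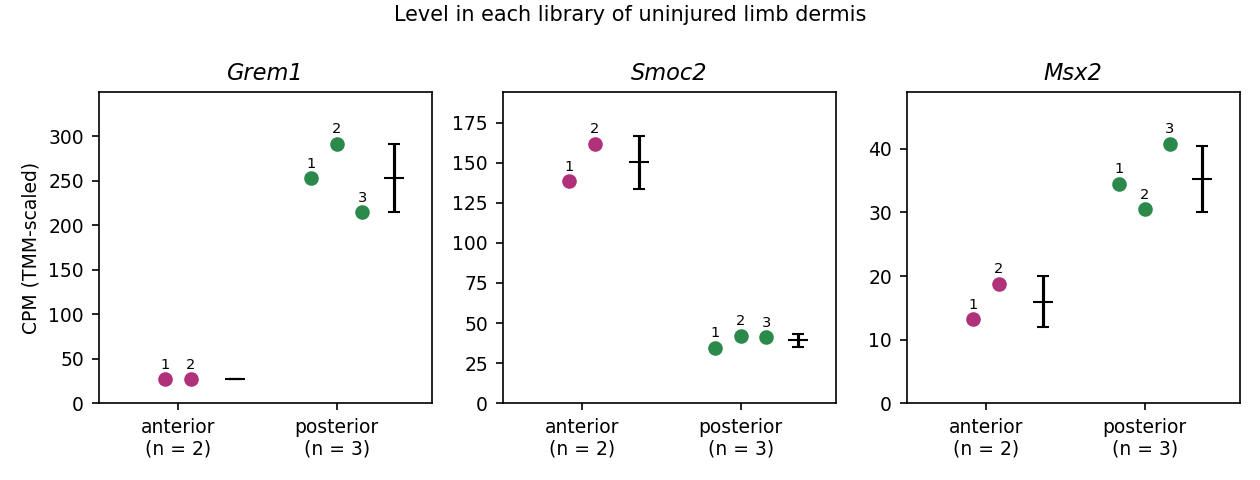
Level of *Grem1*, *Smoc2* and *Msx2* in TMM-scaled CPM (vertical axes, each starting at 0) in the 2 anterior and 3 posterior libraries. Points are single libraries with their replicate number, and the bar beside them is the mean with its SD. *Grem1* stands at 27.0 and 26.7 CPM in anterior and at 215 to 292 CPM in posterior cells, *Smoc2* shows the reverse order, and the *Msx2* groups are closest to each other.

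For *Grem1*, *Msx2* and *Smoc2*, then, no library of the lower position reached any library of the higher one. Of all 20875 tested genes, 10.5% had every posterior library above every anterior one and 13.6% had the reverse order. In edgeR's quasi-likelihood fit across all genes, at a false-discovery rate of 0.01, *Grem1* and *Smoc2* were called and *Msx2* was not. The same rule called 0.254% of all genes tested, 0.12% in the posterior and 0.134% in the anterior direction. As the contrast chose the 3 genes, nothing is read from this count. All 3 were called in DESeq2, which called 1.4% of all genes. For the 3 genes this follows from the study's own choice by that test. Other rules used below called 0.623% of all genes (the replicate number as a block) and 0.608% (a rate of 0.05), and 7.55% had an unadjusted p under 0.05.

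The epidermal, immune and cartilage and bone marker sums and the low muscle marker were, like *Grem1* and *Msx2*, higher in posterior cells. The endothelial and mural marker and the dermal connective tissue sum were, like *Smoc2*, higher in anterior cells, though 5 of the 8 dermal markers were higher posteriorly. All these markers are on the study's lists of positional genes, so that each differed between positions by that choice. Their sums are thus no measure of cell content. Within the posterior libraries the cartilage and bone sum had the order of *Grem1*, at 68.6, 78.1 and 58.6 CPM in replicates 1, 2 and 3. Most of that sum was *Acan*, at 60.1, 70.7 and 46.7 CPM. The other marker in it, *Col11a1*, did not have this order but that of *Msx2*, at 8.57, 7.38 and 11.9 CPM. Orders of single markers in the other sums are not given here. The epidermal sum had neither the order of *Grem1* nor that of *Msx2*. *Grem1* was highest in posterior replicate 2 (292 CPM), where the epidermal markers had their lowest posterior sum (634 CPM). *Msx2* was highest in posterior replicate 3 (40.8 CPM), where that sum was 724 CPM, and posterior replicate 1 had the highest sum (878 CPM) with neither gene at its highest. With 3 libraries these orders are given as values only, and the part of these markers in the levels of the 3 genes was not tested.

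How far the replicates of a position differed from each other was not alike for the 3 genes. In anterior cells the *Grem1* levels had a coefficient of variation of 0.847%, below the 2.79% that counting error alone would give at these counts. In posterior cells it was 15.2%, which is 18.3 times the counting error of 0.831%. Of the 200 tested genes nearest to *Grem1* in posterior level, 80.5% varied less, with a median of 8.77%. *Grem1* was thus among the more variable genes of its level within the posterior group, although its differences between positions were far larger. *Smoc2* varied by 10.9% in anterior and 10.4% in posterior cells, against medians of 7.08% and 12.0% for genes of like level. *Msx2* varied by 24.9% between the anterior libraries, where 80.5% of like genes varied less, and by 14.6% between the posterior libraries, close to the median of 14.0% there. Counting error was at most 3.59% for any of these values. It was smaller than the observed spread in all of them but the anterior *Grem1* levels. The SD of the anterior group rests on 2 libraries throughout.

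Ratios of counts within a library do not depend on how libraries are scaled to each other. The *Grem1* to *Smoc2* ratio was 0.195 and 0.165 anteriorly and 7.32, 6.94 and 5.23 posteriorly. *Smoc2* counts thus exceeded those of *Grem1* in both anterior libraries, and the order was turned round in all 3 posterior libraries. How fully each 3′ end catches its reads is unknown, so that ratios between genes are ratios of counts and not of transcript numbers. On the log2 scale the mean ratio was -2.48 ± 0.17 (SD, n = 2) in anterior and 2.68 ± 0.26 (SD, n = 3) in posterior cells, a difference of 5.16. The *Msx2* to *Smoc2* ratio was 0.095 and 0.116 anteriorly and 1.00, 0.727 and 0.993 posteriorly, so that their counts were near equal in posterior replicates 1 and 3. *Grem1* counts exceeded those of *Msx2* in every library, by 2.05 and 1.42 times in anterior and by 7.32, 9.55 and 5.27 times in posterior cells.

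The other genes of the pathway were taken from a list of 72 BMP genes that spans ligands, receptors, extracellular modulators, proteases, Smads and responsive genes. Symbols were known only for genes on the study's lists, and 8 of the 72 had an identifier. None of the 11 receptor and co-receptor genes and none of the 8 Smad genes and regulators did, so that these layers of the pathway were not analysed here. Of the 12 ligands 1 had an identifier, and of the 12 responsive genes 2. Beside *Grem1*, *Smoc2* and *Msx2*, 5 genes remained, 2 with the higher level posteriorly and 3 anteriorly. By the rule above (edgeR, rate 0.01), 1 of them passed, against 0.254% of all genes. Their median log2 fold change was -0.90, beside -0.016 over all genes tested. All 5 are calls of the study on these libraries, so that their share says nothing of the pathway as a whole.

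Among the ligands, *Gdf6* (AMEX60DD033076), a member of the BMP family known for its part in joint and skeletal patterning, was counted 630 and 796 times anteriorly and 290, 264 and 225 times posteriorly. That was 14.8 ± 1.09 CPM (SD, n = 2) against 4.55 ± 0.381 CPM (SD, n = 3), with no overlap. The *Gdf6* log2 fold change of -1.70 (standard error 0.30) missed the threshold, with an adjusted p of 0.0389 in edgeR.

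Among the extracellular modulators, *Chrd* (AMEX60DD001527) encodes Chordin, an antagonist that binds BMPs and holds them away from their receptors. With anterior counts of 6565 and 8251 and posterior counts of 5240, 4430 and 4138, it averaged 154 ± 10.7 CPM (SD, n = 2) against 80.6 ± 7.54 CPM (SD, n = 3). At a log2 fold change of -0.93 (standard error 0.14) edgeR gave it an adjusted p of 0.0196, above the threshold. In limma-voom it passed, at an adjusted p of 0.00702. *Chrd* and *Grem1*, both antagonists of BMP ligands, thus had their higher level at opposite positions. *Gpc4* (AMEX60DD037492), a glypican that carries heparan sulfate at the cell surface, was at 255 ± 11.4 CPM (SD, n = 2) anteriorly and 394 ± 36.3 CPM (SD, n = 3) posteriorly. It did not pass either, at a log2 fold change of 0.63 (standard error 0.13) and an edgeR adjusted p of 0.0711.

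*Pcsk5* (AMEX60DD043210), a convertase that cleaves precursors of secreted signalling proteins, averaged 132 ± 16.8 CPM (SD, n = 2) anteriorly and 71.1 ± 4.82 CPM (SD, n = 3) posteriorly, and missed the threshold too. Its log2 fold change was -0.90 (standard error 0.15), its edgeR adjusted p 0.0279. *Tbx2* (AMEX60DD054625), a T-box factor that BMP signalling induces in several mouse tissues, was the gene that passed. It rose from 329 and 349 anterior to 1896, 1854 and 1371 posterior counts. By edgeR's quasi-likelihood test its log2 fold change of 2.07 (standard error 0.24) had an adjusted p of 0.00442. *Msx2* and *Tbx2*, the 2 of 12 BMP-responsive genes with an identifier, thus both had higher levels in posterior cells. Whether the sizes of these differences differ was not tested. Both genes are on the study's lists, so that their shared direction says nothing of the other responsive genes. Counting *Grem1*, *Smoc2* and *Tbx2*, 3 of the 8 genes passed. Without posterior replicate 1, 2 or 3 it was 1 of them, where 5, 2 and 3 of all genes passed. The contrast chose these genes, so that nothing is read from these counts. With the DESeq2 test or without the filter on low counts all 8 passed, which for DESeq2 follows from the study's own choice by that test.

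The antagonists *Grem1* and *Chrd* and the modulator *Smoc2* were also added up in each library, a sum chosen after their values were seen. Together they held 312 and 350 CPM anteriorly and 377, 409 and 333 CPM posteriorly. These ranges overlapped, and the means of 331 ± 26.9 CPM (SD, n = 2) and 373 ± 38.4 CPM (SD, n = 3) differed 1.13-fold, much less than any of the 3 genes alone. Opposite differences offset each other in such a sum, so that its evenness depends on which genes were added. The modulator *Gpc4*, at 255 CPM anteriorly and 394 CPM posteriorly on average, was not part of it. The make-up of the sum differed far more. *Grem1* was 8.66% (95% exact binomial interval 8.20 to 9.14) and 7.62% (7.24 to 8.02) of these counts in the anterior libraries. In the posterior libraries it was 67.1% (66.5 to 67.7), 71.3% (70.7 to 71.8) and 64.5% (63.8 to 65.2). The intervals treat reads as independent counts and leave out the spread between pools. No molecular identifiers are described, so that reads copied from the same molecule could make them too narrow. *Chrd* and *Smoc2* made up 46.5% ± 0.549 and 45.3% ± 1.28 (SD, n = 2) in anterior cells, and 21.8% ± 2.86 and 10.6% ± 1.61 (SD, n = 3) in posterior cells.

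**Figure D2:**
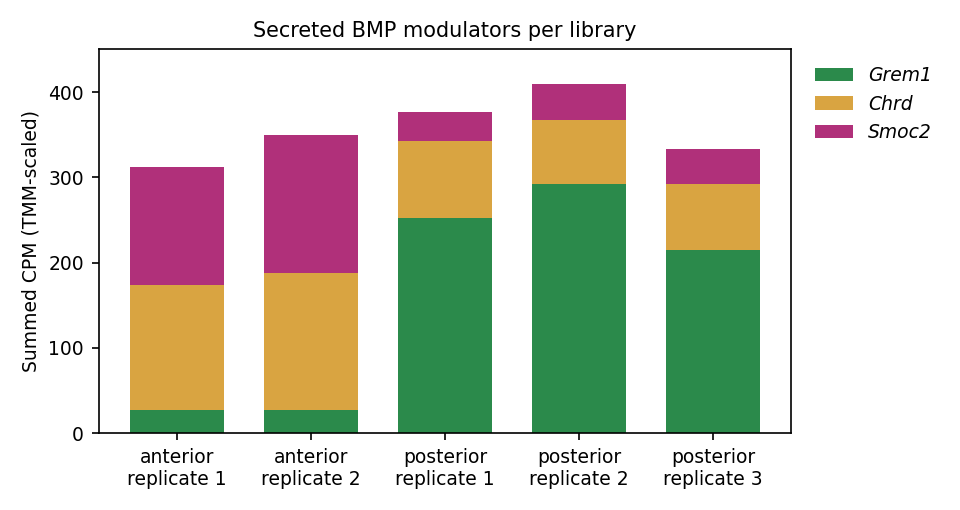
Summed level of *Grem1*, *Chrd* and *Smoc2* in TMM-scaled CPM (vertical axis, from 0) in each of the 5 libraries, with 1 colour for each gene. The bars are of similar height, 312 to 409 CPM, while *Grem1* fills 7.62% and 8.66% of the anterior bars and 64.5% to 71.3% of the posterior bars.

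In the mouse limb bud *Grem1* is a link between Shh, made under the control of Hand2 and Hox factors, and the Fgf genes of the ridge. A list of 21 genes of this loop had 6 with an identifier, *Grem1* included. *Shh* and *Fgf8* were not analysed here. The study states that neither is expressed in uninjured salamander limbs, and that salamanders express Fgf ligands anteriorly instead of in a ridge. Beside *Grem1*, 5 list genes had an identifier. Of these, the transcription factor genes *Hand2* and *Hoxd13* passed in edgeR, both in the posterior direction, beside 0.12% of all genes. All 5 are calls of the study on these libraries, so that their share says nothing of the loop as a whole. *Hoxd13* did not pass in limma-voom, at an adjusted p of 0.139. The log2 fold changes of *Hand2* and *Hoxd13*, 3.43 (standard error 0.16) and 3.94 (standard error 0.47), were of the size of that of *Grem1*. *Hoxd13* rested on low counts, 58 and 29 anteriorly and 646, 885 and 900 posteriorly. Its log2 fold change was 4.65 without anterior replicate 1 and 3.46 without anterior replicate 2. *Hoxa13*, at 1.82 ± 0.330 CPM (SD, n = 2) anteriorly and 7.17 ± 1.76 CPM (SD, n = 3) posteriorly, missed the threshold with an edgeR adjusted p of 0.14.

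A pair of genes that act on hedgehog ligands at the cell surface had the higher level in anterior cells. *Hhip* (AMEX60DD044974), whose product binds and holds back hedgehog ligands, averaged 86.7 ± 0.366 CPM (SD, n = 2) anteriorly and 55.5 ± 4.20 CPM (SD, n = 3) posteriorly. That is a log2 fold change of -0.64 (standard error 0.15), with an edgeR adjusted p of 0.14. *Cdon* (AMEX60DD053448), a hedgehog co-receptor, had 264 ± 8.95 CPM (SD, n = 2) and 145 ± 2.02 CPM (SD, n = 3). Its log2 fold change of -0.86 (standard error 0.12) fell just short of passing, at an edgeR adjusted p of 0.0105. It passed in edgeR with a block for replicate number (adjusted p = 0.00909), in limma-voom (adjusted p = 0.00324), with no filter on low counts and in DESeq2. In both genes the groups did not overlap, as in this direction for 13.6% of all genes tested. Both are calls of the study, so that nothing is read from this. The number of loop genes passing was 3 with *Grem1*. Without posterior replicate 1, 2 or 3 it was 2, where 5, 2 and 3 of all genes passed. In the DESeq2 test it was 6. For DESeq2 this follows from the study's own choice by that test.

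**Figure D3:**
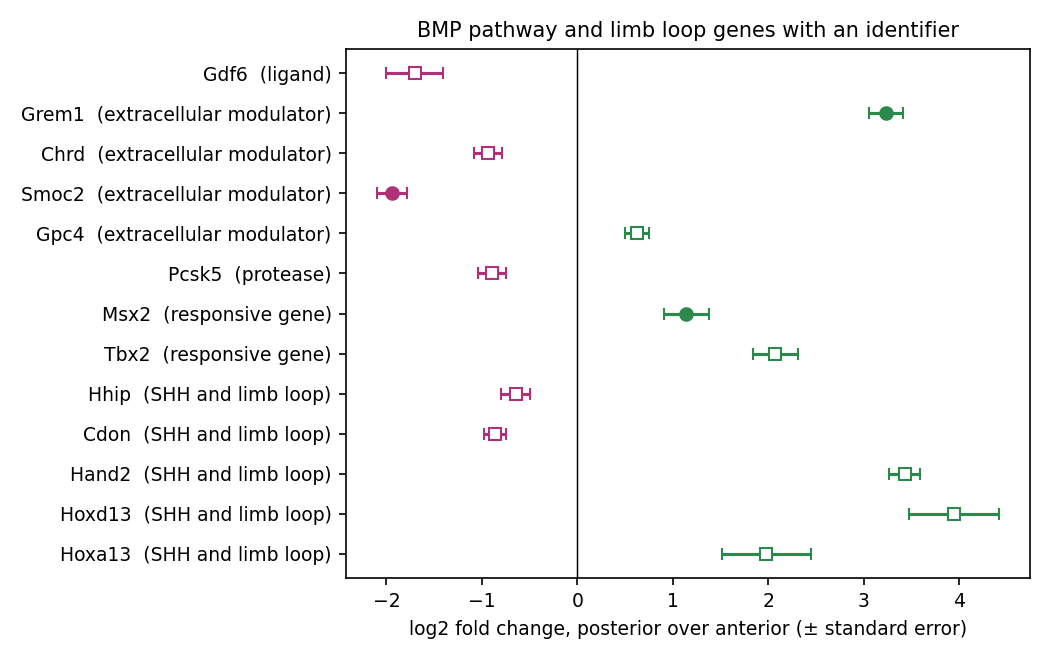
Log2 fold change of posterior over anterior cells (horizontal axis) with its standard error for the BMP pathway and limb loop genes that have an identifier, ordered by role. Filled circles are *Grem1*, *Smoc2* and *Msx2*, open squares are the other genes, green is higher in posterior and magenta higher in anterior cells. *Grem1*, *Hand2* and *Hoxd13* lie between 3.24 and 3.94, and the secreted *Gdf6*, *Chrd* and *Smoc2* lie between -1.94 and -0.93.

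The 15 identifiers numbered before and the 15 numbered after each of *Grem1*, *Smoc2* and *Msx2* were then read, to see whether genes listed beside them shared their position. Among protein-coding genes of the axolotl assembly UKY_AmexF1_1 of RefSeq, matched by symbol, *Smoc2* lies between *Thbs2* and *Dact2*, and *Msx2* between *Nsg2* and *Drd1*. Of these neighbours, *Thbs2* and *Drd1* have an identifier here. *Grem1* is followed there by *Scg5*, *Arhgap11a* and *Fmn1*, none of which has an identifier here.

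*Thbs2* (AMEX60DD034565), which encodes the matrix glycoprotein thrombospondin 2, stands 12 identifiers before *Smoc2*. Anteriorly it was counted 35230 and 48658 times, posteriorly 17199, 19101 and 16745 times, the same side as *Smoc2*. Its log2 fold change of -1.49 (standard error 0.12) passed in edgeR, at an adjusted p of 0.000625. It did not pass without posterior replicate 1, 2 or 3, where 5, 2 and 3 of all genes passed. *Drd1* (AMEX60DD028768), a dopamine receptor gene 10 identifiers after *Msx2*, was counted 26 and 18 times anteriorly and 176, 192 and 153 times posteriorly, the same side as *Msx2*. At these low counts the edgeR adjusted p was 0.367, for a log2 fold change of 2.70 with a standard error of 0.83. Both carry a symbol because the study lists them, so that their direction is a description like that of *Smoc2* and *Msx2*.

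Of the 90 neighbouring identifiers, 53 had no count in any library, among them 10 of the 11 between *Thbs2* and *Smoc2*. Beside *Thbs2* and *Drd1*, 25 were tested in edgeR, and 0 of them passed, where 0.254% of all genes did. Their smallest adjusted p was 0.673, 0 had an unadjusted p under 0.05, and 0 passed in DESeq2 or limma-voom. The study's lists hold its DESeq2 calls, so that identifiers outside them were not expected to pass in that test. All 53 genes called in edgeR here were also called in DESeq2, so that the 0 in edgeR follows largely from the same choice. Nothing is read from these counts. For the 19 that were counted in every library, log2 fold changes ran from -1.10 to 0.99. The other 6 were at 0 in at least 1 library and had standard errors of at least 1.53. Beside *Grem1*, 11 were tested, 6 of them with the higher level posteriorly, with log2 fold changes from -1.25 to 2.25, and from -0.41 to 0.98 for the 9 counted in every library. The identifier just before *Grem1* (AMEX60DD012131) had few counts, 0 and 30 anteriorly and 132, 38 and 72 posteriorly. Its groups did not overlap, as in this direction for 10.5% of all genes tested. Its log2 fold change of 2.25, the highest of the 11, had a standard error of 1.83 and an edgeR adjusted p of 0.962.

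**Figure D4:**
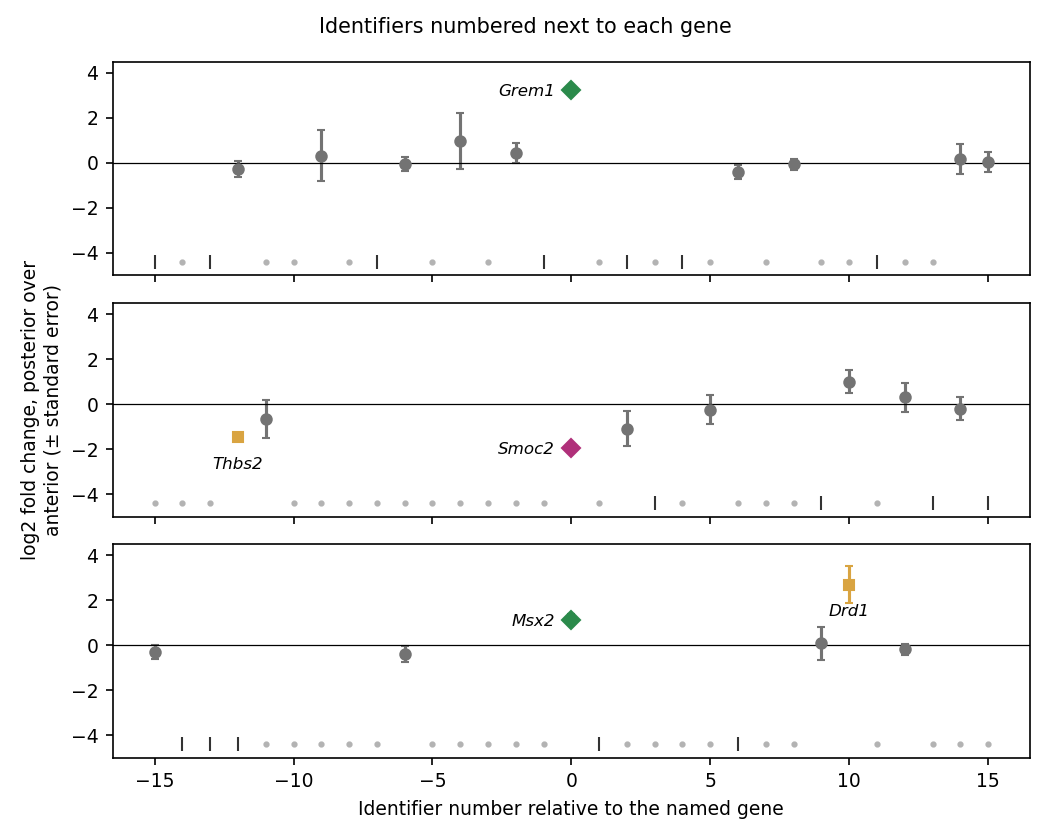
Log2 fold change of posterior over anterior cells (vertical axis) with its standard error against the identifier number relative to *Grem1*, *Smoc2* and *Msx2* (diamonds, 1 panel each). Grey circles are tested identifiers counted in every library, yellow squares are *Thbs2* and *Drd1*, and the marks at the foot show identifiers with no count (dots) or with counts in some libraries only or too few to test (bars). Grey circles lie between -1.10 and 0.99, and *Grem1* is at 3.24. Nothing is read from this, as the circles are identifiers outside the study's lists and *Grem1* was chosen by its difference.

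The genes whose profile over the 5 libraries was most like that of each gene were ranked by the root mean square difference of log2(CPM + 0.5) values, each gene centred on its own mean. The comparison was made over 15582 other tested genes with a mean of at least 1 CPM. For *Grem1* the nearest were *Hand2*, at a root mean square difference of 0.17, the identifier AMEX60DD008885 without a symbol, at 0.29, and *Hoxd13*, at 0.37. Within 0.3 of *Grem1* lay 2 genes. *Hand2* averaged 13.6 ± 0.340 CPM (SD, n = 2) anteriorly and 147 ± 5.68 CPM (SD, n = 3) posteriorly, so that its level was below that of *Grem1* at both positions and its posterior replicates were closer together.

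Within 0.3 of *Smoc2* lay 32 genes. The nearest were *Epha4*, a receptor of membrane-bound ephrins, at 0.13, the homeobox gene *Barx1* at 0.13 and the T-box gene *Tbx22* at 0.16. All 3 were higher in anterior cells, as the measure requires, and had lower CPM than *Smoc2* there, at 52.6 ± 3.39, 13.9 ± 1.66 and 33.9 ± 5.11 CPM (SD, n = 2). The cut of 0.3 is a fixed distance, and more genes fall within it around a small difference between positions. The numbers within it are thus not compared between genes. *Msx2* had 223 genes within 0.3. Its nearest were *Lamb2*, which encodes a laminin chain of basement membranes, at 0.060, AMEX60DD034615, which has no symbol, at 0.088, and *Uchl1*, a ubiquitin hydrolase gene, at 0.10. *Uchl1* is also among the nerve and glia markers above. These distances describe 5 libraries of 2 positions, so that any gene with a like difference between positions comes close.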

How the data were processed

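QuantSeq 3′ libraries were made by the authors from 20.25 ng of RNA with added ERCC spike-in RNA. The authors trimmed reads with Trimmomatic 0.39, mapped them to AmexG_v6.0-DD with HISAT2, which reported several alignments of a read where found, and counted them per gene with featureCounts. Versions of the last pair of tools, the strand setting and how such reads were counted are not given in the sources used here, so that counts could be shared between close paralogues. The authors deposited raw counts per gene and library, and no other values were used. Columns were assigned by the library number in the sample labels.

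Genes were filtered by filterByExpr, scaled by TMM and compared with edgeR 4.0.16 in R 4.3.3 (glmQLFit and glmQLFTest, position as the term, 5 libraries), with Benjamini-Hochberg adjustment over 20875 genes and a false-discovery rate of 0.01. Replicates were pools of 8 axolotls each. The p-values set the difference between positions against the spread between these libraries, estimated with information shared across genes. The standard error is the absolute log2 fold change divided by the square root of F. Alternatives were DESeq2 1.42.0, limma-voom (limma 3.58.1), DESeq2 size factors, library totals, no filter, at least 100 counts, a block for replicate number, omission of each library and a rate of 0.05. Symbols come from the study's lists, which pair 283 of 306 identifiers with one. The RefSeq table matched 0 identifiers and 224 of 279 symbols and served only for neighbouring genes. Genes named are *Grem1*, *Smoc2*, *Msx2*, list genes and tested neighbours with an identifier, the 3 nearest profiles of each, epidermal markers and some markers within other sums. The genes and the lists were chosen with earlier results of these data known.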

Additional observations from a re-analysis of the deposited data

How the results depend on the processing

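*Grem1*, *Smoc2* and *Msx2* kept their direction under all 12 alternatives computed for each. Their choice by this contrast in these same libraries, with groups that did not overlap, fixed that direction, so that nothing is read from it. With each library left out in turn, log2 fold changes ran from 3.12 to 3.35 for *Grem1*, from -2.05 to -1.82 for *Smoc2* and from 0.91 to 1.42 for *Msx2*. That of the *Grem1* to *Smoc2* ratio ran from 5.04 to 5.31. With the replicate number as a block they were 3.34, -1.97, 1.05 and 5.31. Posterior replicate 3 has no anterior partner. The difference between replicates 1 and 2 among anterior libraries had a Pearson's r of -0.036 with that among posterior libraries. This was taken across genes, which are not independent replicates. Counting error in genes with few counts can lower such a correlation, so that it cannot decide whether the numbers are pairs. The main fit left the numbers out, and the block is given as an alternative.

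The number of genes called moved much more. It was 53 in edgeR, 292 in DESeq2, 337 with no filter on low counts, 130 with the replicate block and 127 at a false-discovery rate of 0.05, and each of these included the 53. Limma-voom called 74, of which 47 were among the 53. With 1 library left out it ran from 2 to 62, the low numbers (5, 2 and 3) being those without posterior replicate 1, 2 and 3. Of the BMP list, 3 genes were called, against 8 in DESeq2 or with no filter, 6 at a rate of 0.05 and 3 with the block. Limma-voom called 4 of that list, with *Chrd* added. Without posterior replicate 1, 2 or 3, 1 of that list was called. Of the loop list 3 were called, 6 in DESeq2 and 4 with the block, and 3 in limma-voom, where *Cdon* took the place of *Hoxd13*. Of the neighbouring identifiers 1 was called, also with the block, and 0 to 1 with a library left out. The causes were not tested. For the 26 other genes followed singly, 0 of 338 values changed direction, 28 lost and 39 gained the call. All of them but AMEX60DD034615 are calls of the study on these libraries, which fixed their direction.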
